A study of Mus musculus with 12 samples.

Results

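The RNA described here came from the 3 vehicle libraries of a 12-sample mouse series on riociguat, a stimulator of soluble guanylate cyclase, and it was taken by sample label alone: all libraries labelled DMSO were kept and no library that received the compound was used. The cells were wild-type HSCs from mouse liver, read here as hepatic stellate cells because the labels do not spell the abbreviation out. Per well of a 6-well plate, 1000000 freshly isolated cells were seeded and cultured for 12 h, the medium was changed, DMSO was added 12 h later, and the cells were collected after a further 12 h, 24 h after the medium change. The DMSO concentration, the age and sex of the mice and the source of each replicate are not given in the labels, so the spread between the 3 libraries may be technical. No library stood for freshly isolated or quiescent cells, so every value below is a level in early culture and not a change.

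Hepatic stellate cells are the pericytes of the liver sinusoid. In the healthy organ they store vitamin A as retinyl esters in lipid droplets, and in injured liver or on culture plastic they lose these droplets, take on a contractile, myofibroblast-like state and deposit matrix. Desmin, the platelet-derived growth factor receptor beta and lecithin retinol acyltransferase mark the lineage, while smooth muscle actin and type I collagen mark its activated state.

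The libraries held 21113478, 23932969 and 20775018 assigned counts in replicates 1, 2 and 3, the order in which every set of 3 values below is given. Levels are stated on a pair of scales. CPM values are counts scaled to a library of 1000000 and serve for one gene across libraries, and 1 CPM was 20.9 to 23.9 counts. TPM values are also divided by gene length, add up to the same total in each library and serve for comparisons between genes. Errors are SDs over the 3 libraries (n = 3). Of 21861 nuclear protein-coding genes, 12886 had a mean of at least 1 CPM, 9475 (43.3%) of at least 10 CPM and 82 of at least 1000 CPM. A floor of 3 counts in 1 library was 0.125 to 0.144 CPM, and counting error weighs more on genes near or under 1 CPM. A TPM value rests on the transcript length assumed for the gene. Of 591 listed or leading genes, 124 moved over 1.5-fold against the others when the longest transcript or the union of exons gave the length. Genes named below that moved over 2-fold included Fgf2, Rps24, Tead1, Ccnd2, Kitl, Ppard, Il6st, Vegfa, Lifr, Npr3, Tpm1, Esd, Dcn, Fth1, Gapdh, Mrtfb, Tgfbr1, Smad7 and Bgn. With the longest transcript, the ratio of Igf1 to its receptor gene Igf1r went from 0.615 to 0.121. That of Cx3cl1 to Cx3cr1 went from 1320 to 224, and the share of Klf13 among Kruppel-like factors from 27.9 to 3.83%. With lengths from the comprehensive annotation, Myh9, Itgav, Smad3, Col3a1, Col4a1, Agtr1a, Pdgfb, Rarg, Bmpr1a, Plin2, Tnfrsf1a, Prdx1, Itga9, Egfr, Gata4 and Eef1a1 also moved over 2-fold against the others. The TPM of all these genes is the least certain.

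Replicate 1 stood apart from the other two. Mitochondrial transcripts took 4.51% of its counts against 2.99% and 2.61%, and all 13 mitochondrial protein-coding genes were highest there, by 1.28 to 6.63 times the mean of the others. mt-Nd2, a subunit of respiratory complex I, was at 3285, 1197 and 1029 CPM, and mt-Co1, the catalytic subunit of cytochrome oxidase, at 11045, 8487 and 7352 CPM. Among the 9625 genes with a mean of at least 10 CPM, 71 (0.738%) were at least 1.5-fold above both other libraries in replicate 1 and 5 (0.0519%) at least 1.5-fold below them. Replicate 2 had 0 above and 1 below, and replicate 3 had 1 above and 4 below.

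Among nuclear protein-coding genes, the most abundant messages encoded iron storage, translation and the actin cytoskeleton. Mitochondrial messages such as mt-Co1 were left out of this ranking. Ftl1, the ferritin light chain, stood first at 15894, 16376 and 17043 TPM, and Fth1, the heavy chain, ranked 3 at 9051, 9679 and 9742 TPM. Between them lay the elongation factor Eef1a1 at 9197, 9786 and 9935 TPM. The cytoplasmic actins Actb and Actg1 followed, and Hmox1, the inducible heme oxygenase that releases iron from heme, was next at 4404, 4964 and 5040.1 TPM. The 3 libraries kept within a narrow band for each of these genes, and replicate 1 was the lowest for all 6 on both scales. The antioxidant genes Prdx1, Prdx6 and Gstp1 had 3665 ± 37.1 TPM, 2654 ± 135 TPM and 2987 ± 110.3 TPM, and Sqstm1, an autophagy receptor, had 2379 ± 132 TPM. Sparc, a collagen-binding glycoprotein, was the only secreted matrix gene among the leading 25, at 2719 ± 188 TPM. Ribosomal proteins were encoded by 7 of the 25, and the 25 together held 10.7% of all TPM. The membership of this list depended on length: 19 of the 25 stayed in it with the longest transcript of each gene as its length, 16 with the union of exons, 14 with comprehensive annotation lengths and 14 by CPM. Sparc, Rps24 and Cfl1 left it in all 4 cases, Prdx6 in 3 and Gapdh in 2, while Ftl1, Eef1a1, Fth1, Actb, Actg1 and Hmox1 stayed in all 4.

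**Figure D1:**
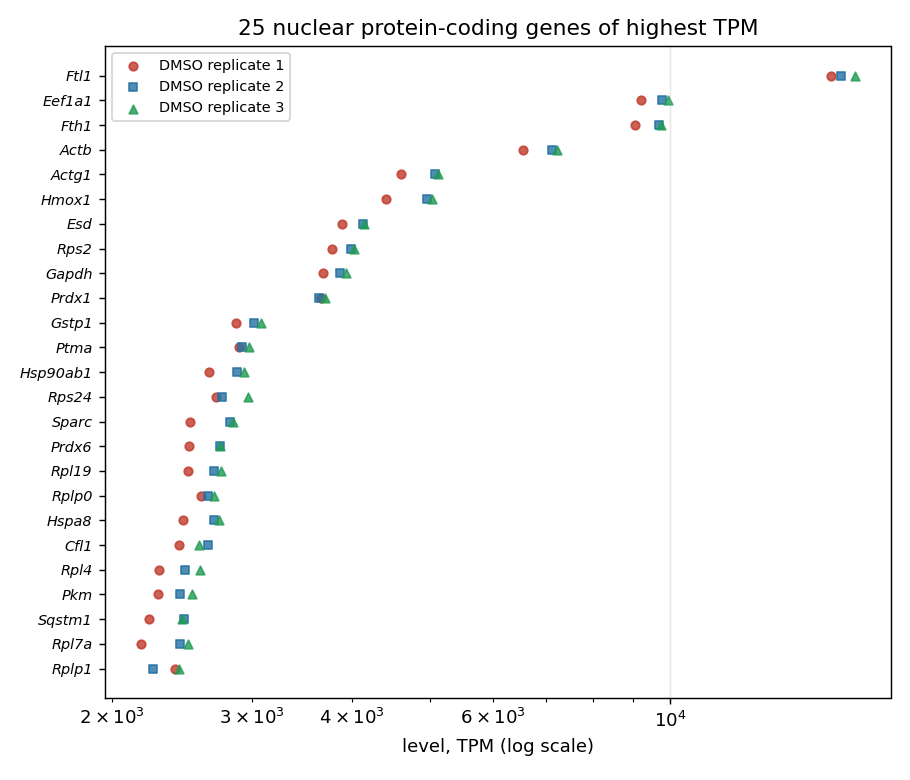
Levels of the 25 nuclear protein-coding genes with the highest mean TPM (x axis, TPM, log scale), 1 point per DMSO library. The 3 libraries lie close together for every gene, from Ftl1 at 16438 TPM down to Rplp1 at 2360.5 TPM.

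Of the 5 defining stellate markers, 4 were well above 10 CPM and Lrat was not. Acta2, the smooth muscle actin of activated stellate cells, was at 420.4, 539 and 522 TPM, lowest in replicate 1. Des, the intermediate filament desmin, was at 117, 143 and 132 TPM. Col1a1, the alpha 1 chain of type I collagen, was at 121, 127 and 127 TPM, and its range overlapped that of Des. Pdgfrb, the PDGF receptor beta, was at 87.6, 93.2 and 92.4 TPM. Lrat, the enzyme that esterifies retinol for storage, was at only 2.34, 2.19 and 1.06 TPM, or 128, 133 and 56 counts, lower in replicate 3 than in the others. Among the nuclear protein-coding genes Acta2 ranked 257, Des 1229, Col1a1 1284, Pdgfrb 1857 and Lrat 11945 by TPM.

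Of 32 further genes associated with stellate cells, 30 reached 1 CPM and 25 reached 10 CPM. Of all nuclear protein-coding genes, 58.9% and 43.3% reached these levels. Vim, the intermediate filament vimentin, led them at 2210.5 ± 68.8 TPM, then Dcn, the proteoglycan decorin, at 787 ± 14.7 TPM. Reln, the secreted glycoprotein reelin, had 248, 255 and 250.2 TPM and 1355 ± 14.9 CPM, a long transcript with little spread. The mesenchymal regulator Gata4 had 119 ± 5.52 TPM. Of the growth factors that stellate cells secrete, Hgf, the hepatocyte growth factor, had 98.7, 96.7 and 89.8 TPM, and Bmp10, a ligand of the endothelial receptor ALK1, had 69.8, 78.9 and 81.9 TPM. Tcf21, Hand2 and Lhx2, transcription factors of the lineage, had 33.7 ± 1.93 TPM, 31.7 ± 4.07 TPM and 25.7 ± 1.12 TPM. Gfap, the glial filament used as a stellate marker in rats, was at 0.336, 1.04 and 0.463 TPM, or 9, 31 and 12 counts, and Ntrk3, a receptor kinase, was also under 1 CPM at 0.647 ± 0.137 CPM.

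**Figure D2:**
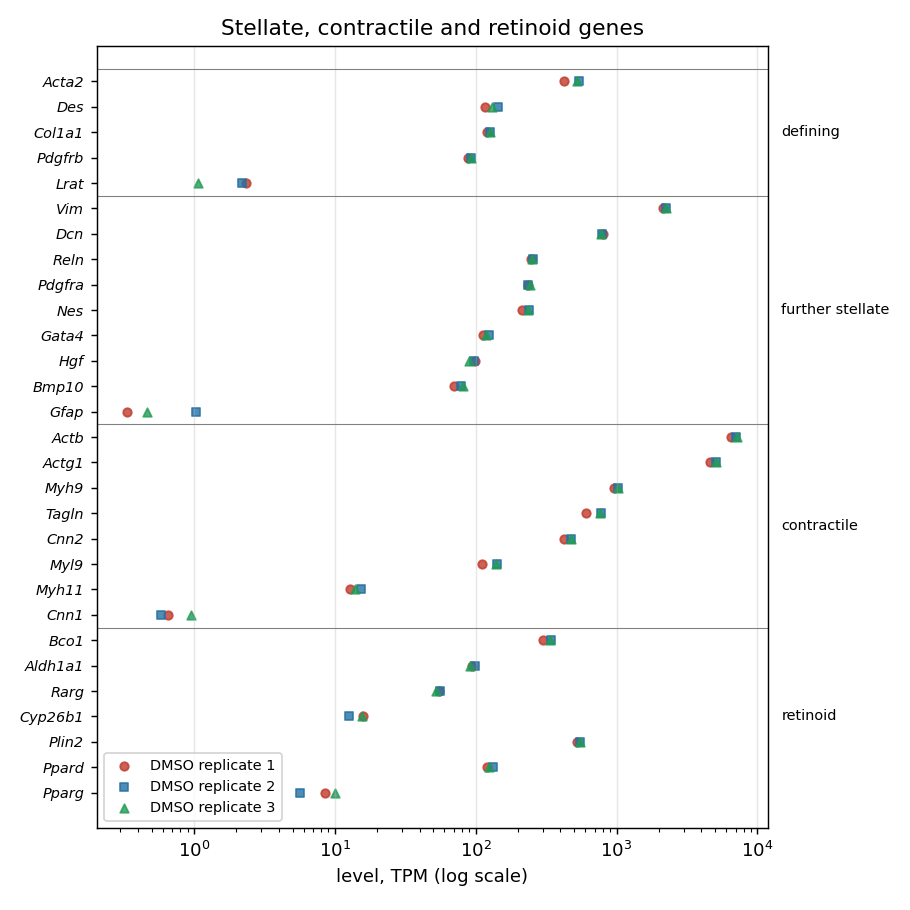
Levels of stellate, contractile and retinoid genes (x axis, TPM, log scale), 1 point per DMSO library, grouped by role at the right. Lrat, Gfap and Cnn1 lie at or near 1 TPM while Acta2 is at 494 TPM and Actb at 6957 TPM.

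RNA of other liver cells was present in every library at a steady level. These are bulk samples, in which fewer cells of a type and less RNA per cell cannot be told apart. All 27 hepatocyte markers were above 1 CPM, a level that 58.9% of nuclear protein-coding genes reached, and 23 were above 10 CPM. They summed to 2292, 2195 and 2183 CPM. The lowest were Pck1, Tat, Cps1 and G6pc at 4.45 ± 1.03, 1.99 ± 0.491, 1.64 ± 0.552 and 1.41 ± 0.275 CPM. Alb, serum albumin, was at 847, 833 and 811 CPM, and Trf, transferrin, at 219.7 ± 4.21 CPM. All 17 sinusoidal endothelial markers were above 1 CPM and summed to 1390.5, 1453 and 1489 CPM. Cdh5, the endothelial cadherin, had 306, 329 and 324 CPM, Pecam1, the adhesion molecule CD31, had 217 ± 22.8 CPM and Stab1, a scavenger receptor, had 191 ± 4.49 CPM, whereas its relative Stab2 had 10.4 ± 1.12 CPM. Endothelial RNA was highest in replicate 3 and hepatocyte RNA in replicate 1, but both sums moved by only a few percent.

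Epithelial markers of bile duct cells summed to 1547, 1513 and 1478 CPM, with 11 of 12 above 1 CPM. The keratins Krt8, Krt18 and Krt19 had 372 ± 5.76 CPM, 262 ± 7.93 CPM and 122 ± 2.37 CPM, the adhesion molecule Epcam had 48.4 ± 0.931 CPM and the epithelial cadherin Cdh1 had 203 ± 7.16 CPM. Spp1, osteopontin, and Krt19 stand on more than one list, and without them the bile duct sum was 1127 ± 20.1 CPM. Markers of portal fibroblasts and mesothelium summed to 678, 713 and 764 CPM, most of it from Fbln2, fibulin 2, at 381 ± 36.5 CPM. Msln, mesothelin, and Wt1, a mesothelial transcription factor, had 16.5 ± 3.19 CPM and 17.3 ± 2.41 CPM. Clec3b and Gli1 were under 1 CPM.

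Blood cell RNA was scarce. Macrophage markers summed to 152, 164 and 154 CPM, and 3 of 17 passed 10 CPM: the lysozyme Lyz2 at 68.1 ± 1.35 CPM, the lysosomal protein Cd68 at 31.1 ± 3.08 CPM and the receptor Csf1r at 19.6 ± 0.366 CPM. Clec4f, the lectin that defines mouse Kupffer cells, was at 0.666, 0.502 and 0.192 CPM. Timd4, a further Kupffer cell marker, and Aif1 were also under 1 CPM. The other 14 of the 17 were above 1 CPM. Among them, Marco, Cd5l, Adgre1 and Vsig4 had 4.47 ± 2.12, 4.06 ± 1.13, 3.61 ± 1.08 and 1.57 ± 0.508 CPM. Of all nuclear protein-coding genes, 58.9% reached 1 CPM and 43.3% reached 10 CPM. Of 15 lymphocyte markers, Ighm, the IgM heavy chain, alone exceeded 10 CPM (43.8, 43.2 and 59.8 CPM), highest in replicate 3, and 12 were under 1 CPM, with Klrb1c and Ncr1 at 0 counts. Of 12 neutrophil and mast cell markers, only Kit, the stem cell factor receptor, exceeded 1 CPM, at 66 ± 3.35 CPM, and S100a9, Ly6g, Elane and Retnlg had no count in any library. A count of 0 in all 3 libraries allows up to 0.0456 CPM. Pf4, platelet factor 4, had 21.4 ± 2.03 CPM, the largest part of a platelet and erythroid sum of 29.5 ± 1.88 CPM, but the platelet receptor subunit Gp9 had no count. Schwann cell and neuron markers summed to 31.9 ± 2.71 CPM, mostly Mbp, myelin basic protein, at 24.3 ± 1.95 CPM, and Snap25, a synaptic protein, had no count. Smooth muscle markers summed to 443, 495 and 462 CPM, of which Des and Rgs5 are also stellate genes, and without these the sum was 224 ± 11 CPM. The smooth muscle calponin Cnn1 and the coactivator Myocd were under 1 CPM and phospholamban, Pln, had no count. How far these other cells contribute to the gene levels below was not tested.

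**Figure D3:**
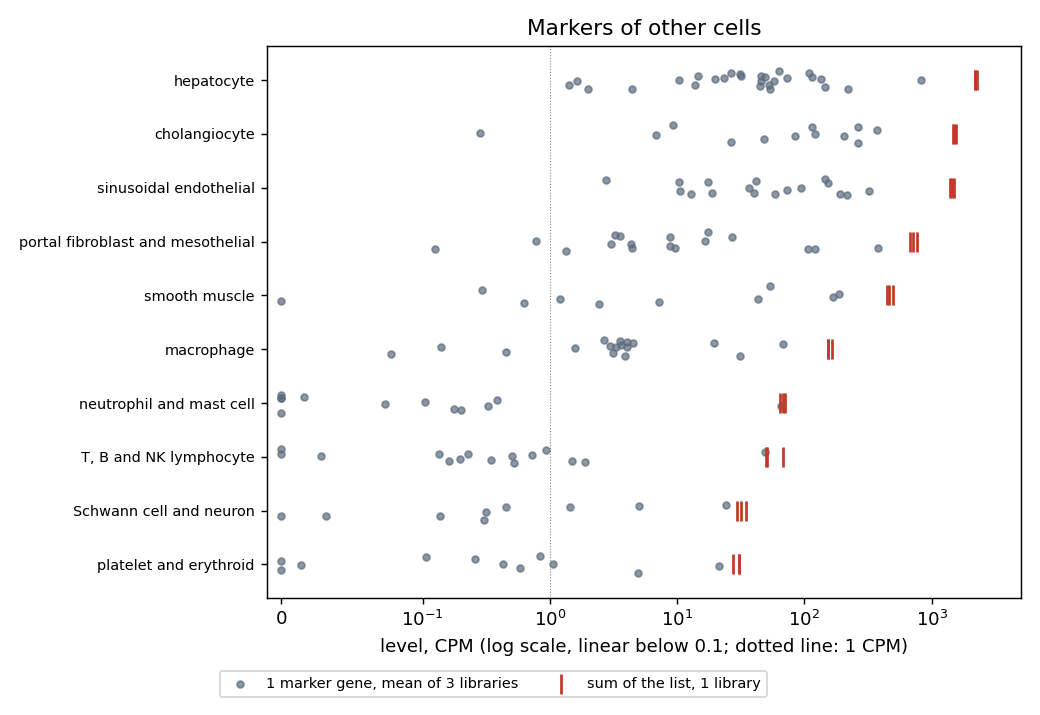
Levels of marker genes of other cell types (x axis, CPM, log scale that is linear below 0.1), 1 grey point per gene as the mean of 3 libraries, with the summed level of the list in each library as red bars. Hepatocyte, bile duct and endothelial lists sum to 2223, 1513 and 1444 CPM, while the lymphocyte, granulocyte, platelet and neural lists rest on 1 or a few genes.

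Contractile and cytoskeletal genes were mostly of the non-muscle kind. Of 50 such genes, 30 (60%) reached 10 CPM, beside 43.3% of all nuclear protein-coding genes. Among the actins Actb held 56.2% ± 0.342 of the summed TPM and Actg1 39.8% ± 0.0473. Acta2 stood 14.2 ± 1.24-fold under Actb. The striated muscle actin Acta1 and the enteric actin Actg2 had 1.49 ± 0.139 TPM and 3.87 ± 0.976 TPM, and the cardiac actin Actc1 had no count. Of the class II myosin heavy chains, the non-muscle Myh9 held 95.4% ± 0.0523 (953, 1032 and 1022 TPM), against 14 ± 1.3 TPM for the smooth muscle Myh11. Tagln2 was the leading transgelin at 2142 ± 83.9 TPM, and the smooth muscle form Tagln had 607, 774 and 762 TPM, lowest in replicate 1 like Acta2. Among calponins Cnn2 and Cnn3 had 459 ± 32.8 TPM and 360.4 ± 16.5 TPM and Cnn1 had 0.73 ± 0.196 TPM. Tpm4 and Tpm1, tropomyosins that coat actin filaments, had 1599 ± 74.9 TPM and 1225 ± 58 TPM. Myl9, the regulatory light chain of smooth muscle and non-muscle myosin, had 131 ± 16.9 TPM, and its kinase Mylk had 101 ± 3.99 TPM. Myl12b, a related light chain, has 2 gene entries, and their sum was 918 ± 49.4 TPM. The entry with more counts overlaps the Myl12a gene in position on the same strand, and sharing of reads was not tested. The cross-linker Flna, filamin A, had 1145 ± 75.8 TPM, and Des was below both Vim and the filament Nes at 229 ± 13.4 TPM.

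A CArG box lay in the promoters of an abundant actin gene, Actg1, and of actin genes at or near 0. Actb, the leading actin, had no promoter window here and was not examined. Serum response factor binds the CArG box, and an exact match to it, on either strand because the motif is its own reverse complement, lay within 250 bases before a RefSeq start in 439 of 27025 mouse genes (1.62%). It lay there in 8 of the 41 contractile genes that have a RefSeq window, of which 4 were at 10 CPM or more, beside 26 of all 41. Actg1 at 4936 ± 281 TPM, Acta1 at 1.49 ± 0.139 TPM and Actc1 at 0 all held an exact box, with its first base 90, 73 and 47 bases before the start. Acta2 held none, but it held a pair of boxes with 1 changed base, 84 and 34 bases before the start, a looser match found in 8.33% of genes. Actc1 held 3 such boxes, 175, 138 and 87 bases before its start, and Acta1 held 2, 205 and 154 bases before. Of these 5, only the nearest one of Actc1 lies in the stretch shown. The 120 bases before each start are shown from 5′ to 3′ in the direction of the gene (RefSeq, GRCm38.p6), with exact and 1-changed boxes in capitals, because these 4 genes cover abundant, intermediate and nearly silent actins. They lie at chr11:120348496-120348615, minus strand for Actg1, chr19:34255374-34255493, minus strand for Acta2, chr8:123894776-123894895, minus strand for Acta1 and chr2:114052876-114052995, minus strand for Actc1.
Actg1 promoter: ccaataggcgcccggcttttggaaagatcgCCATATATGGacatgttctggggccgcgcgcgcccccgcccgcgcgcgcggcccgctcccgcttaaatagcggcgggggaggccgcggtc
Acta2 promoter: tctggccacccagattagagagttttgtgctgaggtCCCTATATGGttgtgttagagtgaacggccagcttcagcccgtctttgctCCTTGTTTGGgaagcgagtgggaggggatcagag
Acta1 promoter: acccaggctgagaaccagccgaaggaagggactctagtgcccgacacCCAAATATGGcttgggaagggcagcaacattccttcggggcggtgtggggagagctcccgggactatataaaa
Actc1 promoter: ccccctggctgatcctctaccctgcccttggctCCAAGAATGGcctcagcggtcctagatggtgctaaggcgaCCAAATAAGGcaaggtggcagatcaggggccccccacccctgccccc

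A match in these letters is a description of the sequence and not a site of binding. Srf itself had 98.3 ± 9.54 TPM, and its coactivators Mrtfb and Mrtfa had 37 ± 1.34 TPM and 20.9 ± 1.23 TPM, while Myocd, the muscle-restricted member, had 3, 6 and 10 counts. The order of Srf over Mrtfb over Mrtfa held in all 3 libraries without overlap, but Mrtfb lost its place above Mrtfa with the longest transcript or the union of exons as gene length.

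Basement membrane collagen exceeded fibrillar collagen. Col4a1, a chain of the type IV network, was at 746, 843 and 849 TPM and held 37.9% ± 0.885 of the TPM of all 44 collagen genes. Its partner Col4a2, which lies head to head with it on chromosome 8, was at 370.5, 409 and 407 TPM. Col1a1 followed, and Col3a1 and Col5a2, fibrillar chains whose ranges overlapped, had 119, 118 and 116 TPM and 107, 120.1 and 122 TPM. Col1a2, the partner of Col1a1, had 80.2, 93.2 and 91.4 TPM and overlapped Col5a1 at 85.3 ± 3.09 TPM. The ratio of Col4a1 to Col1a1 was 6.15, 6.63 and 6.68, well apart from 1 in each library and 6.36 to 36.7 over 4 gene lengths. Of the 44 genes, 19 reached 10 CPM, near the 43.3% of all nuclear protein-coding genes, and 2 had no count.

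Collagen triple helices are built from fixed numbers of chains, so partner chains were set side by side. Col1a1 to Col1a2 was 1.51, 1.36 and 1.39, Col4a1 to Col4a2 2.01, 2.06 and 2.09 and Col6a1 to Col6a2 1.43, 1.4 and 1.3. The ratios differed little between libraries and much more with the assumed length: over 4 lengths they ran from 0.824 to 2.99, from 1.87 to 11.6 and from 1.38 to 2.49. The type I ratio thus crossed 1, and its value is not fixed by these data. Among the enzymes that modify collagen, P4ha1, a prolyl hydroxylase subunit, had 113 ± 5.38 TPM and Loxl2, a lysyl oxidase that cross-links collagen, had 171 ± 6.95 TPM, above Lox at 37.4 ± 2.1 TPM.

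Other basement membrane genes were also abundant. Nid1, nidogen 1, which links laminin to collagen IV, had 553, 569 and 570.1 TPM, with 1638, 1645 and 1645 CPM, one of the 10 smallest relative spreads among genes of at least 100 CPM. Hspg2, the heparan sulfate proteoglycan perlecan, had 143 ± 3.28 TPM. Lamc1 and Lamb1, the common laminin chains, had 198 ± 10.3 TPM and 187 ± 6.76 TPM, with 86.3% ± 0.819 and 83.1% ± 0.0483 of the gamma and beta chains. The share of Lamb1 was 31.3% with comprehensive annotation lengths. By contrast, no laminin alpha chain exceeded 33.3 ± 1.94 TPM, the level of Lama5, which overlapped Lama4 at 31.2 ± 1.75 TPM. Of the soluble matrix proteins, Bgn, the proteoglycan biglycan, had 1581 ± 61.5 TPM, Fn1, fibronectin, had 286, 316 and 321 TPM and Tnc, tenascin C of healing tissue, had 287, 309.9 and 311 TPM, and the last pair overlapped. Thbs1, an activator of latent TGF-beta, had 672, 796 and 797 TPM, lowest in replicate 1, and held 97% ± 0.14 of its family. The matricellular Ccn1 and Ccn2, targets of YAP and TAZ, had 1019, 1138 and 1181 TPM and 955, 1139 and 1143 TPM, and their ranges overlapped. Elastin, Eln, had 1.78 ± 0.706 TPM, and Postn, periostin, had 19.2 ± 2.16 TPM.

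Genes of matrix breakdown and its inhibitors were expressed together. Mmp3, stromelysin 1, had 515, 512 and 516 TPM, Mmp14, a membrane-bound collagenase, had 299, 351 and 350.3 TPM and Mmp2, the gelatinase that Mmp14 activates, had 129, 135 and 137 TPM. The order held in all libraries, but on the CPM scale Mmp14 exceeded Mmp3 (465 ± 35.4 CPM against 443 ± 7.09 CPM). Timp1, the main inducible metalloproteinase inhibitor, had 372, 389 and 402 TPM, Timp3 had 192 ± 12.3 TPM and Timp2 had 155 ± 5.95 TPM, whereas Timp4 had 0.0437 ± 0.0419 CPM. Mmp3 to Timp1 was 1.39, 1.31 and 1.28, and 1.33 to 1.37 over 4 gene lengths. The plasminogen activators Plau and Plat had 72.1 ± 2.59 TPM and 45.9 ± 0.764 TPM. Plaur, the urokinase receptor, had 359.6 ± 26.5 TPM.

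Cells attach to these proteins through integrins. Itgb1, the common beta 1 chain, had 579.5, 608 and 597 TPM and held 77.8% ± 0.349 of the beta chain TPM. Itga5, the fibronectin receptor chain, led the alpha chains at 154 ± 10 TPM, followed by Itga9 at 118 ± 3.75 TPM and by Itga3 and Itgav, which overlapped, at 89.3 ± 2.1 TPM and 87.7 ± 3.48 TPM. Itgav led instead when the lengths of the comprehensive annotation were used. The collagen-binding Itga1 and Itga2 had 18.5 ± 0.717 TPM and 13.3 ± 0.298 TPM, and Itga8, a stellate integrin chain, had 4.7 ± 0.568 TPM. Of 198 matrix, protease and adhesion genes, 114 (57.6%) reached 10 CPM, beside 43.3% of all nuclear protein-coding genes.

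The retinoid genes showed little of the storage enzyme and more of the enzymes of oxidation and response. Bco1, which cleaves carotene to retinal, had 302, 342 and 339.7 TPM. Aldh1a1, which makes retinoic acid, had 93.8, 99.3 and 91.7 TPM and held 86% ± 0.72 of its family, and Aldh1a2 had 8.91 ± 0.536 TPM. Dhrs3, which reduces retinal back to retinol, had 104 ± 10.9 TPM. Cyp26b1, which clears retinoic acid, had 15.8, 12.7 and 15.6 TPM, lowest in replicate 2. Rarg led the retinoic acid receptors at 54.4 ± 2.28 TPM, Rara had 23.7 ± 1.11 TPM and Rarb had 15.3 ± 0.494 TPM, an order without overlap. Rxra, the common partner of these receptors, had 142 ± 5.07 TPM. Of the retinyl ester hydrolases, Lipa, the lysosomal acid lipase, had 114 ± 5.5 TPM and Pnpla2, the adipose triglyceride lipase, had 78 ± 5.52 TPM. Stra6, the retinol importer, had 0.295 ± 0.202 CPM, and Rlbp1 had no count. Rbp4, the plasma retinol carrier made mainly by hepatocytes, had 64.7 ± 2.35 TPM, beside the hepatocyte sum given above. Plin2, the coat protein of small lipid droplets, had 521, 554 and 554 TPM, while Plin1, Plin4 and Plin5 were each under 1 TPM. Ppard had 126 ± 5.62 TPM, Pparg, the adipogenic receptor of quiescent stellate cells, had 8.57, 5.69 and 9.97 TPM and Ppara had 1.64 ± 0.225 TPM.

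Among secreted signals, Csf1, the macrophage growth factor, was the most abundant ligand gene on both scales, at 2051, 2239.9 and 2284 TPM (2700.2 ± 115 CPM). Its receptor Csf1r had 9.22, 9.67 and 9.82 TPM, so the ligand exceeded the receptor by 222, 232 and 233 times, and Csf1r stands on the macrophage list above. Cxcl12, the chemokine that retains CXCR4 cells, had 1154, 1270.0 and 1305 TPM, lowest in replicate 1, against 8 ± 0.908 TPM for Cxcr4 and 5.35 ± 0.607 TPM for the scavenging receptor Ackr3. Ccl2 and Ccl7, which attract monocytes, had 669, 603 and 595 TPM and 381, 327 and 337 TPM, and their receptor Ccr2 had 6, 3 and 0 counts. Cxcl1, a neutrophil chemokine, had 602, 504 and 494 TPM, and its receptor Cxcr2 was at 0.328 ± 0.116 CPM. Of 21 chemokine receptors none reached 10 CPM and 4 had no count. At that level were 8 of 15 CXC ligands and 4 of 19 CC and CX3C ligands. The share over all nuclear protein-coding genes was 43.3%.

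Fgf2, a fibroblast growth factor, had 229.7, 238 and 225 CPM, and its TPM ran from 100.5 to 903 TPM with the length assumed, so its standing against its receptor Fgfr1 (172 ± 10 TPM) is not fixed. Tgfb1, the main fibrogenic cytokine, had 164, 161 and 165 TPM and held 84.4% ± 1.59 of the TGF-beta ligands, with Tgfb3 at 23.1 ± 3.25 TPM and Tgfb2 at 7.04 ± 1.05 TPM. Rspo3, which amplifies Wnt signals in the liver lobule, had 192 ± 7.67 TPM, 96.8% ± 0.291 of the R-spondins. The Wnt ligands were all low: Wnt7b, Wnt5a and Wnt2 had 9.84 ± 0.357 TPM, 9.71 ± 0.707 TPM and 9.17 ± 0.309 TPM, neighbours in this order overlapped, and 6 of 19 Wnt genes had no count. Wnt2 and Rspo3 are also known from liver endothelium.

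Of the BMP and GDF ligands, Gdf15, a stress-induced cytokine, had 119, 122 and 122 TPM, and Bmp5 and Bmp10, which overlapped, had 82.7, 75.1 and 73.6 TPM and 69.8, 78.9 and 81.9 TPM. Bmp2 and Gdf2, which encodes BMP9, had 48.1 ± 0.579 TPM and 33 ± 2.08 TPM, and Bmp6, an inducer of hepcidin, had 32.7 ± 3.17 TPM. Gdf15 led the family by TPM, but Bmp10 led by CPM (165 ± 11.3 CPM against 84.5 ± 0.137 CPM). Inhba, which encodes activin A, had 68 ± 7.84 TPM, and its inhibitor Fst had 13.4 ± 0.943 TPM. Pdgfa had 81.4 ± 4.52 TPM and Pdgfb 18.3 ± 2.66 TPM. Ereg, an EGF receptor ligand, had 120.2, 97 and 88.8 TPM. Vegfa had 123, 124 and 126 CPM, with 93.7 to 228 TPM over the lengths. The gp130 cytokines Clcf1, Lif and Il11 had 67.9 ± 2.32 TPM, 34.8 ± 1.34 TPM and 14.1 ± 2.13 TPM, and Il6 had 2.57, 1.04 and 0.958 CPM. Kitl, the stem cell factor, had 122, 81.4 and 77.5 CPM, higher in replicate 1 than in the others. Igfbp7, a binding protein of the insulin-like growth factors, had 510.4, 566 and 611 TPM, whereas the growth factors Igf1 and Igf2 had 14.9 ± 2.26 TPM and 4.23 ± 0.733 TPM. In all, 70 of 192 (36.5%) of the ligand and binding protein genes reached 10 CPM, beside 43.3% of all nuclear protein-coding genes.

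Receptor genes reached 10 CPM in 98 of 197 (49.7%) of cases, near the 43.3% of all nuclear protein-coding genes. Both PDGF receptors were abundant, with Pdgfra at 234, 236 and 243 TPM and Pdgfrb at 87.6, 93.2 and 92.4 TPM, a ratio of 2.67, 2.53 and 2.64 that ran from 1.4 to 4.84 over the lengths, while Pdgfrl had 2.19 ± 0.144 TPM. Axl, a receptor kinase for Gas6, had 561, 619 and 623 TPM and its relative Mertk had 25.9 ± 2.53 TPM. Egfr had 69.5 ± 0.25 TPM, Fgfr1 led the FGF receptors and Met, the receptor of Hgf, had 21 ± 0.954 TPM. Eng, the TGF-beta coreceptor endoglin, had 456, 473 and 480.2 TPM, which is also an endothelial gene. The type II receptor Tgfbr2 had 54.3, 53.8 and 55.4 TPM, and the type I receptors Bmpr1a, Acvr1 and Tgfbr1 had 50.6 ± 5.25 TPM, 49.2 ± 2.4 TPM and 47.6 ± 8.33 TPM, with overlapping neighbours. Tnfrsf12a, the TWEAK receptor, had 684, 706 and 747 TPM, and the TNF receptor Tnfrsf1a had 227 ± 7.96 TPM. Il6st, the shared gp130 chain, had 463, 483 and 482 TPM, above Il11ra1 at 66.2 ± 2.01 TPM, Osmr at 56 ± 2.48 TPM and Lifr at 53.3 ± 3.25 TPM. Tlr4, the endotoxin receptor, had 24.2 ± 3.55 TPM and was the leading Toll-like receptor.

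Of the receptors of vasoactive signals, Ednrb far exceeded its relative Ednra, and both main subunits of soluble guanylate cyclase were expressed. Ednrb, an endothelin receptor, had 235, 210.5 and 206 TPM and Ednra 20.7, 20 and 25.4 TPM, a ratio of 11.3, 10.5 and 8.11 that stayed at 9.71 to 14.1 over the lengths. The ligand Edn1 had 36.5 ± 2.03 TPM, below Ednrb and above Ednra in every library. F2r, the thrombin receptor PAR1, had 85.8, 87.9 and 97.6 TPM and F2rl1 had 12.9 ± 1.73 TPM. S1pr3, S1pr1 and S1pr2, receptors of sphingosine 1-phosphate, had 73.8 ± 1.6 TPM, 53.2 ± 1.25 TPM and 24.4 ± 0.054 TPM, an order without overlap. Agtr1a, the angiotensin receptor, had 23.5 ± 1.07 TPM. Adra1b and Adra2b, which overlapped, had 10.7 ± 2.05 TPM and 9.27 ± 0.405 TPM. Npr3, the clearance receptor of natriuretic peptides, had 67.2 ± 2.27 TPM, and the cyclase receptors Npr2 and Npr1, which overlapped, had 18 ± 0.673 TPM and 17.2 ± 1.01 TPM. Soluble guanylate cyclase, a heterodimer of an alpha and a beta subunit and the receptor of nitric oxide, was present through Gucy1b1 at 44.6, 44.6 and 43.7 TPM and Gucy1a1 at 34.8, 31.1 and 27.4 TPM. The beta to alpha ratio was 1.28, 1.43 and 1.59, and 1.41 to 1.76 over the lengths, while Gucy1a2 had 3.18 ± 0.266 TPM and Gucy1b2 had no count.

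**Figure D4:**
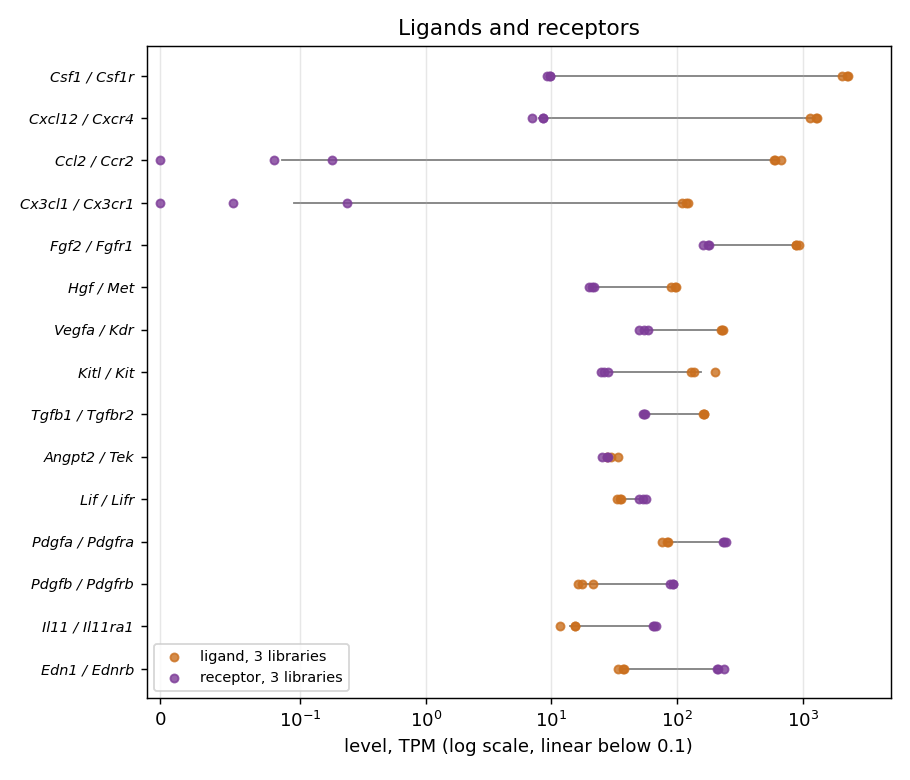
Levels of 15 ligands (orange) and 1 receptor gene of each (purple) on the x axis in TPM (log scale, linear below 0.1), 1 point per DMSO library, with a line joining the means. Csf1 at 2192 TPM and Cxcl12 lie far above their receptor genes, Ccr2 and Cx3cr1 are at 0 in replicate 3, and Pdgfa, Pdgfb, Il11 and Edn1 lie below theirs, as they did under all 4 gene lengths. The ratio of Lif to Lifr, 0.656 here, ran from 0.603 to 1.87 over the lengths and so has no fixed side, and the same holds for Fgf2 and Fgfr1.

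Many gene families were led by 1 member. In 89 families of related genes whose leading member reached 10 CPM, that member held over 50% of the family's TPM in 61 and over 80% in 23. These counts depend on family size, since the leader of 2 members must hold at least 50%. The discoidin domain, endothelin and cannabinoid receptors and the pair YAP and TAZ were such families. The leader was the same in all 3 libraries in 82 families, and in 9 families the first and second members overlapped. Over 4 definitions of gene length the leader stayed the same in 72 of 89 families, and its share stayed over 50% in 43. Among the highest shares that moved little were those of Edn1 among endothelins (99.5% ± 0.436, 99.5 to 99.6% over the lengths), Thbs1 (97 to 97.4%), Rspo3 (96.8 to 97.9%), Myh9 (93.9 to 99.6%) and Ednrb (90.5 to 93.3%). Shares were lowest for the SMADs (18.8% ± 1.14) and the Wnt ligands (19.3% ± 0.63). The BMP and GDF ligands (Gdf15, 28% ± 0.195) and the Frizzled receptors (Fzd1, 31.8% ± 1.61) were also spread over several members.

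**Figure D5:**
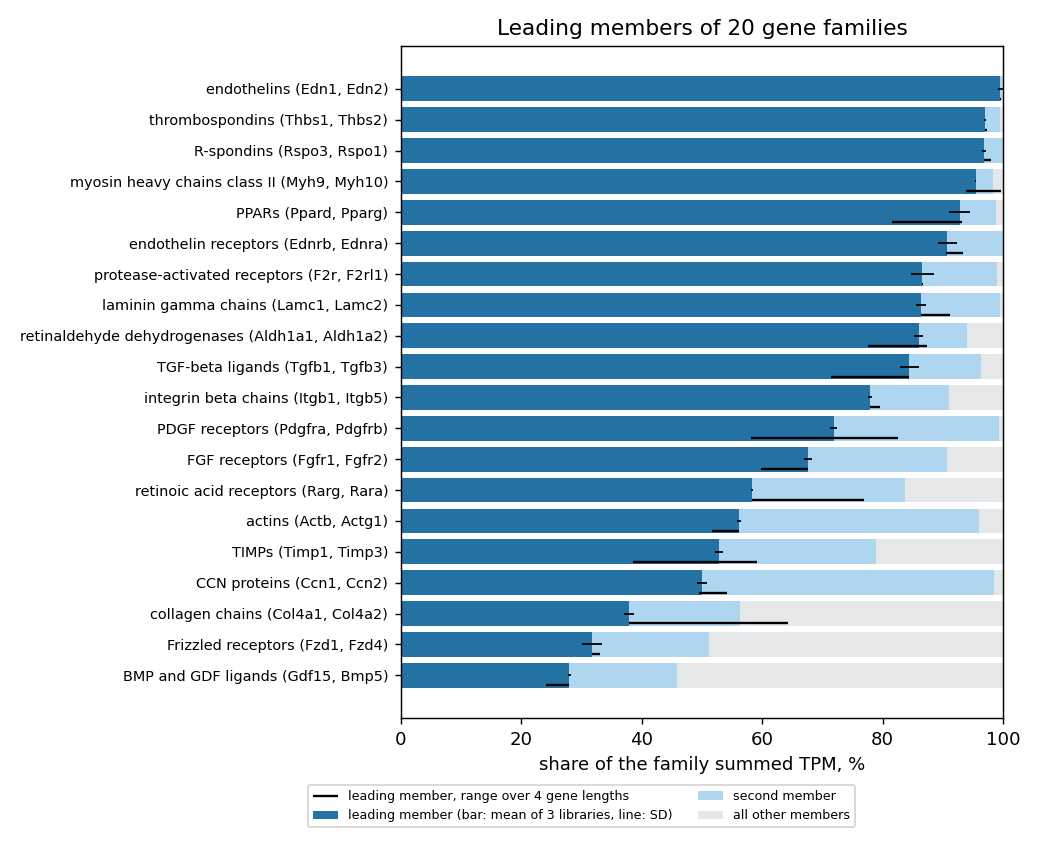
Share of the summed TPM of 20 gene families (x axis, percent) held by the leading member (dark, mean of 3 DMSO libraries with SD), the second (light) and all others (grey), with both named in brackets. The black lines give the range of the leading share over 4 gene lengths, which is wide for Timp1 (38.6 to 59.1%) and narrow for Thbs1 (97 to 97.4%).

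Of 125 listed transcription factors of many families, 80 (64%) were at 10 CPM or more, beside 43.3% of all nuclear protein-coding genes. Wwtr1, which encodes TAZ, had 89.1, 92.4 and 91.8 TPM and Yap1 had 66.1, 62.3 and 60.6 TPM, a ratio of 1.35, 1.48 and 1.52 that ran from 1.44 to 3.13 over the lengths. Tead1, their DNA-binding partner, had 378, 373 and 357 CPM, and it led the family over all 4 lengths with 66.1 to 89.5% of the TPM. Fosl1 and Junb, AP-1 factors, had 260.0 ± 19.2 TPM and 206 ± 8.35 TPM. Klf6, a factor induced in activated stellate cells, had 169, 182 and 183 TPM. Stat6 and Stat3, which act downstream of cytokine receptors, had 134 ± 8.66 TPM and 117 ± 4.19 TPM. The inhibitory Smad7 and Smad6, which overlapped, had 73.3 ± 7.77 TPM and 70.6 ± 6.35 TPM, and Smad3, which carries the TGF-beta signal, had 44.5 ± 2.29 TPM. The leading AP-1, Kruppel-like, SMAD and NF-kB genes changed with gene length, so no leader is given for these families.

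Cell cycle genes differed widely in level. Ccnd2 and Ccnd1, D-type cyclins of the G1 phase, had 429.8, 447 and 446 CPM and 187, 185 and 194 CPM. All 26 proliferation genes were above 1 CPM and 15 above 10 CPM, beside 58.9% and 43.3% of all nuclear protein-coding genes. Pcna, the replication clamp, had 163, 173 and 177 CPM, and Mki67, the proliferation antigen, had 45.2, 43.5 and 47.2 CPM. Lgals1, galectin 1, had 1640.1 ± 26.8 TPM, S100a11, a calcium-binding protein, had 1438 ± 78.9 TPM, and Anxa2, a membrane-binding annexin, had 1673 ± 88 TPM. The cathepsins Ctsd and Ctsb, lysosomal proteases, had 1642 ± 82.4 TPM and 617 ± 13.7 TPM. Cdh2, the neural cadherin of mesenchymal cells, had 222 ± 8.95 TPM, above Cdh5 of endothelium at 167 ± 8.73 TPM and Cdh1 of epithelium at 111 ± 2.32 TPM, and Cdh2 led this family under 2 of the 4 lengths.

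Most levels agreed closely between libraries. Over the 2285 genes of at least 100 CPM the median coefficient of variation was 3.47%, and 94.7% of them were under 10%. Mitochondrial genes were 7 of the 10 most variable, led by mt-Nd2 at 68.4%, and the nuclear ones were Sept2, a septin, at 158, 88.9 and 63.1 CPM, Naa50, an acetyltransferase, at 184, 113 and 111 CPM and Ppp1cb, a phosphatase subunit, at 222, 149 and 133 CPM. All 10 were highest in replicate 1. The 10 least variable included Ergic1, a secretory pathway protein, at 250.2, 250.2 and 251 CPM, Ivns1abp at 113, 113 and 113 CPM and the endocytic ATPase Ehd1 at 342, 343 and 342 CPM. Farthest above the other libraries in replicate 1 were mt-Atp8 (87.2, 14.3 and 12 CPM), the mitochondrial pseudogene Gm28438 (84.4, 22.3 and 20.6 CPM), CT030661.1, the nucleotide kinase Cmpk1 (50.2, 16.2 and 16.6 CPM) and mt-Nd2. Farthest below were Rpl15-ps3 and Tpt1-ps3, pseudogenes of abundant genes, Mir6236, CAAA01147332.1 and Igkc, the immunoglobulin kappa chain, at 10.3, 15.7 and 21.8 CPM. In replicate 2 Mettl7a1 stood below, and in replicate 3 Rpl15-ps3 stood above and Rps13-ps1, Zbtb26, Zfp748 and Bloc1s3 below. Reads of such pseudogenes can be split with near-identical copies, so their values are uncertain.

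The 71 genes that stood above in replicate 1 were mostly nuclear (62 nuclear protein-coding). Their median transcript GC content was 38.9% against 50.4% for all genes of at least 10 CPM, over the 64 with a value, while their median length was 3085 against 2863 bases. Whether base composition or the mitochondrial share has a part in the difference between libraries was not tested. The edgeR biological coefficient of variation, a summary of the spread between libraries over all genes, was 0.0857. It was 0.0547 without replicate 1, 0.104 without replicate 2 and 0.0885 without replicate 3. Pairwise, the counts differed beyond sampling noise in every pair, with a chi-square per degree of freedom of 12.3 for replicates 1 and 2, 16 for 1 and 3 and 4.08 for 2 and 3.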

How the data were processed

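Total RNA of the 3 DMSO cultures was sequenced by the authors on an Illumina protocol, per the labels. The deposited table gives 1 whole-number value per Ensembl gene and sample. FastQC, fastp, Salmon, DESeq2 and the build GRCm38 are named in the submitters' processing notes, with no settings, so the deposited values were treated as estimated counts that the authors rounded. All 53452 genes and only the 3 DMSO columns were read, and 53423 IDs had a length in GENCODE vM21, an annotation of GRCm38. CPM used edgeR 4.0.16 TMM library sizes (R 4.3.3). TPM used the median length of a gene's protein-coding transcripts in the GENCODE basic set. That set was chosen after partial transcripts in the comprehensive set were seen to shorten genes such as Myh9, and the comprehensive set was added as an alternative. Salmon's own effective lengths were not used here. Counts of the 2 IDs named Myl12b, and of the 2 named Ccl19, were summed. No test between groups was made, and spread was estimated with edgeR and, as an alternative, DESeq2 1.42.0, after a check on simulated counts.

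The 126 gene lists hold 1101 genes, of which 4 (Hjv, Il36a, Il36b and Il36g) matched no symbol. Members and lists were chosen with earlier results of these data known, so they support nothing by themselves. Genes named were drawn from the 25 with the highest TPM and a proper symbol, the leading members of each family and the next ones, the top markers of other cells and any defining one at 0, the 5 genes farthest above and below in each library, the 10 most and least variable genes of at least 100 CPM, and the markers given in the text. A few genes are not reported here. Others, such as Eln, Postn and Itga8, were named for their known role after their values were seen. Families counted for their leading member leave out lists of unrelated genes. Alternatives were RLE or no scaling factors, other gene lengths, no low-count filter, lists without shared members, and leaving out each library.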

Additional observations from a re-analysis of the deposited data

How the results depend on the processing

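No paired analysis was possible because the levels come from 1 group and from no test. Of the values recomputed with another scaling, gene length, filter or list, 57 stayed within 1 SD, or within 1.5 times for counts, and 9 moved further. Leaving out 1 of 3 libraries cannot move a mean by 1 SD, so those values are given only as ranges. The bile duct, portal fibroblast and smooth muscle sums moved to 1127, 597 and 224 CPM without members that stand on another list, which are fewer genes. Under the union of exons the ratio of Col1a1 to Col1a2 was 2.99, that of Col4a1 to Col4a2 1.87 and that of Col6a1 to Col6a2 2.49, the last also moving to 1.57 with the longest transcript. With lengths from the comprehensive annotation, chosen after seeing the data, Col1a1 to Col1a2 was 0.824 and Col4a1 to Col4a2 11.6. The biological coefficient of variation ran from 0.0547 to 0.104 when 1 library was left out, lowest without replicate 1, and was 0.0855 with RLE factors, 0.0986 with no low-count filter and 0.095 with DESeq2. Without 1 library each, the number of genes of at least 100 CPM ran from 2282 to 2285, the number of families with a leader over 50% from 60 to 61, the number of receptor genes of at least 10 CPM from 97 to 99 and the mean mitochondrial share from 2.8 to 3.75%. Of 591 listed or leading genes, 124 moved over 1.5-fold against the rest of the table when the longest transcript or the union of exons gave the length, Fgf2, Klf13, Tead1 and Ccnd2 among them, so orders between such genes are uncertain. Depth limits mainly genes with few counts, such as Lrat in replicate 3, Gfap and Ccr2.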

Other observations

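Transcripts of the Y chromosome were present and Xist was nearly absent. Ddx3y, a Y-linked RNA helicase, had 75.1, 52.5 and 49.6 CPM, Eif2s3y had 32.3, 24.7 and 24.8 CPM, and Xist, the RNA that silences an X chromosome in female cells, had 5, 6 and 7 counts. The labels give no sex for the mice. Among long noncoding RNAs, Malat1 had 219, 159 and 167 CPM, Neat1 had 221, 210.5 and 216 CPM and the imprinted H19 had 29.9, 38.2 and 37.7 CPM. Cx3cl1, the tethered chemokine fractalkine, had 25.2, 27.5 and 26.3 CPM, while Cx3cr1 had 2, 10 and 0 counts. Complement C3 had 321, 339 and 321 CPM and the complement inhibitor Serping1 had 94.4, 97.2 and 103 CPM. Gja1, the main connexin of the family, had 193, 167 and 174 CPM. The caveola component Cavin1 had 333, 330.2 and 342 CPM and Cav1 had 44.7, 43.9 and 48.3 CPM.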
